A study of Bos taurus with 12 samples.

Results

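The miRNAs described here are the entries of the deposited bovine table numbered miR-2286 to miR-2490 and miR-6515 to miR-6536, with any letter or arm, whether or not they had a read. They number 264 of the 783 entries, 241 in the first range of numbers and 23 in the second. The numerous miR-2284 and miR-2285 entries, 63 in all, were left out and serve only for comparison. The members were chosen by number alone, so their bovine or ruminant restriction was not tested.

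The libraries came from extracellular vesicles (EVs) in the plasma of 6 crossbred beef heifers aged 21 to 32 months. Their cycles were synchronized. Each heifer was bled on Day 7 of an unstimulated (U) estrous cycle and on Day 7 of a superstimulated (S) cycle. For the S cycle, FSH had been given over 4 days together with prostaglandin injections, followed by artificial insemination. The heifers were picked from 25 for a high (H) or low (L) ovulatory response to FSH. This gave the groups UL, UH, SL and SH with 3 libraries each. A library number was taken to stand for the same heifer in both cycles. UL and UH thus carry no FSH treatment. SL and SH differ from them in FSH, the prostaglandin given with it, insemination and time together, which cannot be told apart. H and L were assigned from the S cycle, also for the U libraries.

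A mature miRNA is a short RNA cut from a hairpin precursor, and it guides Argonaute proteins to messenger RNAs that pair with its seed, bases 2 to 8. Entries ending in 5p and 3p come from the opposite arms of a hairpin, and one arm usually accumulates while the other is degraded. Many miRNAs that were found by sequencing in a single lineage have low expression, a seed of their own and a precursor within an intron of another gene.

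The 13 members seen in 2 or 3 libraries of the same group are those that could be compared between groups, and their mature sequences show how little they share. Sequences are those of the deposited table, 5′ to 3′ in DNA letters, and capitals mark the seed.

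miR-6529: gAGAGATCagaggcgcagagt
miR-2478: gTATCCCActtctgacacca
miR-2419-5p: aTCGCATCaacactcgtctgtt
miR-2448-3p: gTGGTTGAttggatccgtgggt
miR-6517: tCAGGGTCcgtgagctcctcggc
miR-6524: tTACTCTGagtaacctaactg
miR-2299-3p: tCCGGGGAatggatccagcgt
miR-2300b-3p: gGGAGACAaaactagctgagga
miR-2447: tCTGGGAAccggtttggctgct
miR-6525: cTGGGGAAagcaggagtgag
miR-2487: cTCTAAGGgctgggccggtcgg
miR-2336: cTAACCGTaactttgaagtgct
miR-6527: cACGTGGAcgaagagatggga

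No pair of these 13 had a seed in common. Only miR-6524 shared its seed with another entry of the table, miR-2319a, a member that had 0 reads. The 264 members held 255 different seeds, and 9 seeds were each used by 2 members. For 17 members, an entry outside the group had the same seed. The members are therefore not a family in the sense of a common seed, and their values describe separate miRNAs that happen to have neighbouring numbers. Members were rich in G and C, with a median GC content of 54.2% (range 15 to 90%), against 36.4% for the miR-2284 and miR-2285 entries and 47.6% for the other 456 entries. Among members with a read the median was 57.1%, and among members without a read it was 52.4%. The median length was 22 bases in the members and in the other entries alike.

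Most of these miRNAs were not seen in plasma EVs. A read in at least 1 of the 12 libraries was found for 43 members (16.3%), while 221 had 0 reads throughout. The corresponding share was 30.2% for the miR-2284 and miR-2285 entries (19 of 63) and 60.1% for the other entries (274 of 456). In the range from miR-2286, 33 of 241 members were detected (13.7%), and in the range from miR-6515, 10 of 23 (43.5%). A count of 0 allows up to 3 reads, which corresponds to 38.7 tags per 1000000 known miRNA reads in the largest library (SH3) and to 140 in the smallest (SH2), so absence here is absence at this depth. Limits and intervals on reads cover counting error only.

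The detected members were also scarce. Together they had 1008 reads, or 0.189% of the 534136 reads of known miRNAs. Of these reads, 717 belonged to members of the range from miR-6515 and 291 to those of the range from miR-2286. A single miRNA, miR-6529, had 649 reads (64.4%) and was the one member with a read in all 12 libraries. At least 10 reads in total were found for 10 members, a read in 1 library only for 21, and a single read in all libraries for 12. The 13 members shown above had 933 of the 1008 reads. The other 30 detected members had 75 reads in all and at most 7 in a library. Of these 30, 13 were seen in H libraries only and 11 in L libraries only, and 14 were seen in U libraries only and 9 in S libraries only. For 21 of the 30 this was bound to be so, since they were seen in a single library. The same counts were not made over all miRNAs.

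The libraries had 21466 to 77433 reads of known miRNAs, and UMI-collapsed reads stand for separate RNA molecules. The share of these reads taken by members was 0.221, 0.212 and 0.206% in UL1 to UL3, 0.158, 0.180 and 0.140% in UH1 to UH3, 0.0995, 0.210 and 0.203% in SL1 to SL3, and 0.155, 0.177 and 0.240% in SH1 to SH3. The 3 UL libraries lay close together and above the 3 UH libraries, whereas the SL and SH libraries overlapped. As a share of all mapped reads, UL and UH overlapped too, with 0.0669% in UH2 and 0.0428 to 0.0497% in the UL libraries. In SL1, the lowest library, the 95% Wilson interval was 0.0705 to 0.140%, and in SH3, the highest, it was 0.208 to 0.277%. The median share was 0.212% for UL and 0.203% for SL, against 0.158% for UH and 0.177% for SH. Much of this order was that of miR-6529, which made up 42.5 to 83.3% of the member reads of a library. Without it, the medians were 0.0686, 0.0662, 0.0507 and 0.0839% in UL, UH, SL and SH. UL and UH then overlapped, as UH3 (0.0803%) lay above UL2 (0.0686%) and UL3 (0.0631%).

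The UL libraries held 12, 17 and 11 members with a read, the UH libraries 9, 16 and 12, the SL libraries 7, 12 and 10, and the SH libraries 4, 11 and 12. SH1 had the fewest, although its 38688 known miRNA reads were not the lowest, and UL2 had the most. The medians of 12, 12, 10 and 11 in UL, UH, SL and SH differed by less than the range within any group. The number expected after thinning each library to 21466 reads was 3.72 in SH1 and 6.29 to 11 in the other libraries.

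**Figure D1:**
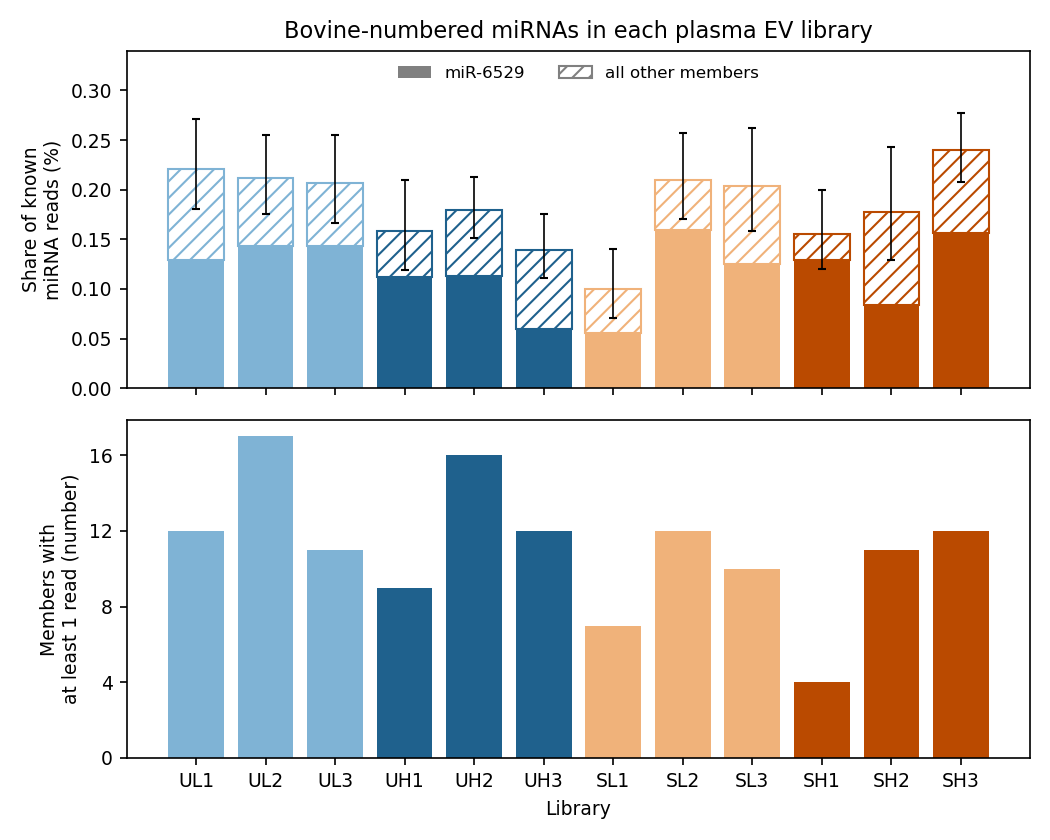
Upper panel, the share of known miRNA reads (%) taken by the members in each of the 12 libraries, split into miR-6529 (filled) and all other members (hatched), with 95% Wilson intervals for the whole bar. Lower panel, the number of members with at least 1 read. The share lay between 0.0995% in SL1 and 0.240% in SH3, and the number of members between 4 in SH1 and 17 in UL2.

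A read in 2 or 3 libraries of the same group, the minimum for a test, was reached by 10 UL, 9 UH, 8 SL and 6 SH members. In all 4 groups it was reached by miR-6529, miR-2478, miR-2419-5p and miR-2448-3p. In both H groups and in neither L group it was reached by miR-6517 alone. In both L groups and in neither H group it was reached by miR-2300b-3p, miR-2447 and miR-6524. Of these, miR-2447 had its highest value in SH3, with 5 reads, and miR-6524 had 4 reads in UH2 and 2 in SH3. Such patterns were not counted over all miRNAs. miR-6527 passed in both U groups and in no S group, and miR-2299-3p passed in all groups but SH. miR-2336 and miR-6525 passed in UH only, and miR-2487 in UL and SH.

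The most abundant member, miR-6529, had 53, 75 and 59 reads in the UL libraries and 34, 84 and 31 in the UH libraries. In the S cycle it had 18, 69 and 37 reads (SL) and 50, 18 and 121 reads (SH). Scaled by the effective library sizes to the mean depth, the U cycle gave 58.3 ± 9.44 normalized reads for UL and 44.3 ± 18.9 for UH, and the S cycle gave 49.1 ± 24.0 for SL and 58.7 ± 19.8 for SH (mean ± SD, n = 3). The groups overlapped in every comparison, and the rank of miR-6529 by mean level over the 12 libraries was 59 of 783. The lowest library was SL1 with 22.1 and the highest SH3 with 72.9 normalized reads.

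Several members read as the reverse complement of another entry, as precursors annotated on both strands of the same DNA do. In 5 pairs with a member, at least 16 bases in a row matched the reverse complement of the partner. The sequences of 2 of these pairs are shown because all reads of a pair belonged to the same entry, with capitals again for the seed.

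miR-6529: gAGAGATCagaggcgcagagt
miR-6529b: aCTCTGCGcctctgatctct
miR-2300b-3p: gGGAGACAaaactagctgagga
miR-2300a-5p: tCCTCAGCtagttttgtctccc

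In the first pair, 20 bases are shared with the opposite strand, and miR-6529 had 649 reads where miR-6529b had 0. In the second, all 22 bases are shared, and miR-2300b-3p had 13 reads where miR-2300a-5p had 0. Another pair gave 5 reads of miR-6523 and 0 of miR-6523b. In the fourth, miR-2284j had 2 reads and the member miR-2312 opposite to it had 0, and in the fifth, the 2 arms of the miR-2329 hairpin, neither entry had a read. In each of the 4 pairs with reads, 1 entry thus had all of them, on as few as 2 reads.

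The arms of a hairpin could be compared for 34 precursors with both arms in the table, of which 9 had a read. miR-2419 had 60 reads on the 5p arm and 1 on the 3p arm. miR-2448 had 2 on the 5p arm and 43 on the 3p arm, and miR-2299 had 1 and 14. For miR-2483 the 5 reads were all on the 5p arm. Each of the other 5 precursors had 1 to 3 reads, all on the 3p arm.

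The second most abundant member, miR-2478, ends like a mature tRNA, and its end is shown in capitals for that reason.

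miR-2478: gtatcccacttctgacaCCA

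The letters CCA stand at the end of every mature tRNA, and 10 of the 783 entries ended in them. Its nearest entry in the table was miR-1260b, 5 edits away, which also ends in CCA and had 0 reads. miR-2478 had 18, 10 and 6 reads in the UL libraries, 1, 8 and 8 in the UH libraries, 4, 3 and 8 in the SL libraries and 0, 4 and 9 in the SH libraries. Whether its 79 reads came from a hairpin or from a tRNA was not tested.

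RefSeq genes of the assembly ARS-UCD2.0 gave a position for 221 of the 230 precursors of members, and 184 of these lay within another gene, in 172 cases a protein-coding gene. The annotation used gave no strand, and it is of another assembly than the reads were mapped to. Of the 13 members tested, miR-6529 lies within GSK3B, which encodes a kinase of glycogen metabolism and Wnt signalling. miR-2300b lies within FLT1, a receptor for vascular endothelial growth factor, and miR-6524 within PDCD4, an inhibitor of translation. miR-6517 lies within DNAAF2, needed to assemble the dynein arms of cilia, and miR-2447 within LIN54, a subunit of the cell cycle repressor complex DREAM. miR-2299, miR-6525 and miR-6527 lie within B3GLCT, FASTK and ADNP, respectively. No gene spans miR-2336, miR-2419, miR-2448 or miR-2478 in this annotation, and miR-2487 had no match.

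**Figure D2:**
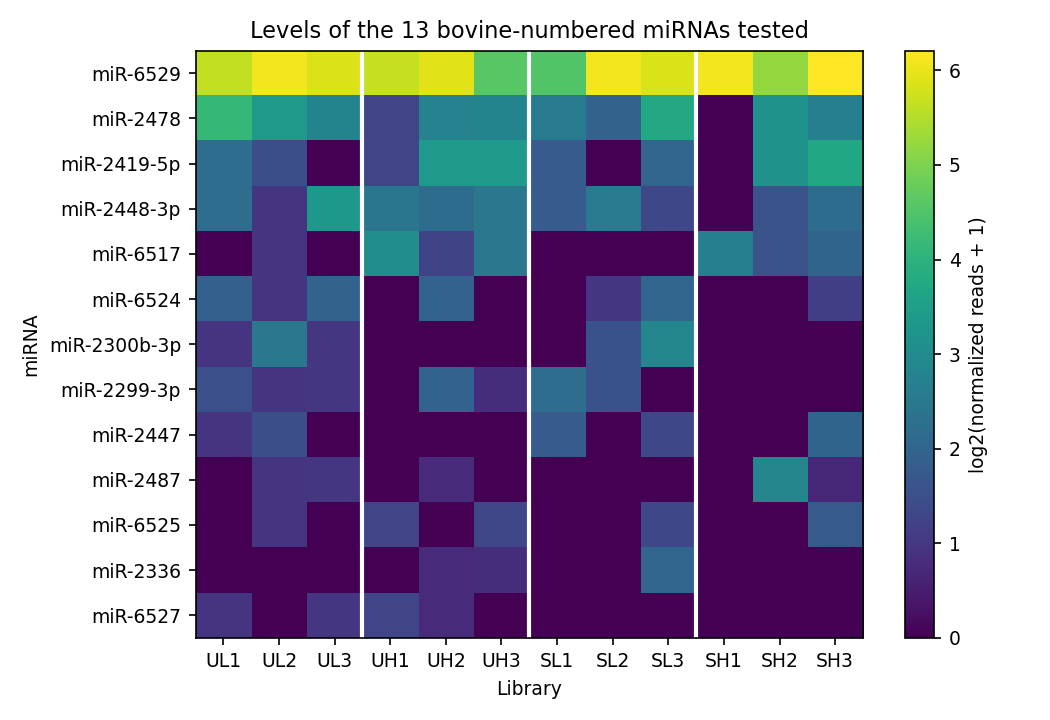
Level of each of the 13 members tested (rows) in each of the 12 libraries (columns), as log2(normalized reads + 1) in colour. miR-6529 is the one row above 0 in every library, miR-6517 is above 0 in all UH and SH libraries, and miR-2300b-3p is at 0 in all of them.

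The first question put to the members was whether high and low responders differed before any stimulation (UH vs. UL). A miRNA is referred to as called where limma gave an absolute log2 difference of 1 or more with an unadjusted P no higher than 0.05 on log2(normalized reads + 1), a scale that understates changes of miRNAs with few reads. Of the 13 members tested, 2 were called, miR-6517 higher and miR-2300b-3p lower in UH, and over all 227 miRNAs tested 6 were called (2.64%), or 10 without UL3 and 10 without UH2. In every comparison of H with L, miR-6517 met the minimum for a test through H groups only, and miR-2300b-3p through L groups only. Each was thus tested because of the group where it was higher. Their calls and lack of overlap are not independent of that selection. The median log2 difference was -0.23 over the members and 0.04 over all miRNAs. No adjusted P was under 0.05 for any miRNA in any comparison reported here.

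The reads of miR-6517 numbered 5, 2 and 6 in UH1 to UH3, and UL1 to UL3 had 0, 1 and 0. Every UH library lay above every UL library. Groups without overlap, in either direction, were found for 2 of the 13 members and for 7.49% of all miRNAs tested. In normalized reads, the UH level was 4.43 ± 2.96 and the UL level 0.301 ± 0.521 (SD, n = 3 each). The log2 difference was 1.96 ± 0.72 (SE), with an unadjusted P of 0.015 and a Benjamini-Hochberg adjusted P of 0.929 in limma. Summed over the groups, 13 reads against 1 gave a ratio of 12.2 with a 95% exact counting interval of 1.83 to 518. Without UL1, the call was lost at a log2 difference of 1.80.

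miR-2300b-3p had 1, 5 and 1 reads in UL and 0 in each UH library. The libraries did not overlap here either. Its log2 difference was -1.47 ± 0.61 (SE), with an unadjusted P of 0.0289 and a Benjamini-Hochberg adjusted P of 0.929 in limma. Since UH had no read, this value depends on the pseudocount. Against a limit of 3 reads over the UH group, the 7 reads of UL gave a level 2.49-fold lower in UH. The counting error of the 7 reads is not included. The call was lost without UL2 (log2 difference -0.97), and without UH2 or UH3 (-1.47 in both).

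In the S cycle (SH vs. SL), miR-6517 was again higher in H. It had 4, 1 and 5 reads in SH1 to SH3 and 0 in each SL library, so the groups did not overlap. This was the 1 member called of 10 tested, against 11 called of 201 miRNAs (5.47%), and the 1 member without overlap, against 8.96% of all. The count over all miRNAs depended on SH2, and without that library it was 34. Its level was 3.46 ± 1.73 normalized reads in SH (SD, n = 3). The log2 difference was 2.09 ± 0.64 (SE), with an unadjusted P of 0.00785 and a Benjamini-Hochberg adjusted P of 0.434 in limma. The 10 reads of miR-6517, against a limit of 3 for the 0 in SL, gave a level 2.84-fold higher in SH. The counting error of the 10 reads is not included.

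miR-2300b-3p had 0, 2 and 4 reads in SL and 0 in each SH library, and SL1 at 0 made the groups overlap. Its log2 difference of -1.47 ± 0.77 (SE) did not pass, with an unadjusted P of 0.0818 and a Benjamini-Hochberg adjusted P of 0.666 in limma. It was called only without SL1, at -2.21. The median over the 10 members was -0.50, against -0.08 over all miRNAs tested.

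**Figure D3:**
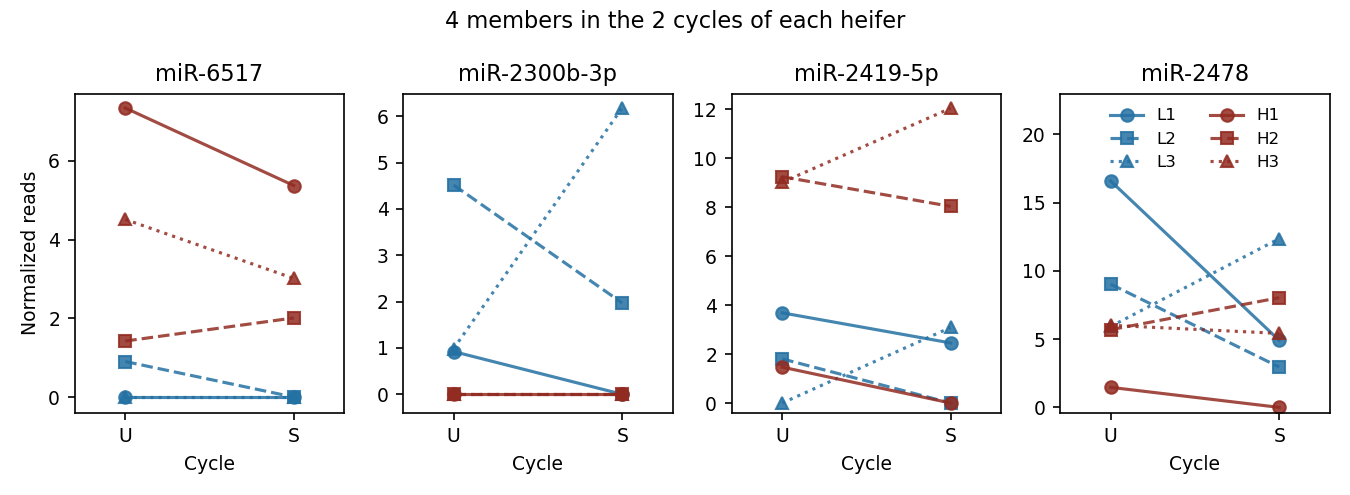
Normalized reads of miR-6517, miR-2300b-3p, miR-2419-5p and miR-2478 in the U and the S cycle of each of the 6 heifers. Each line joins the 2 same-numbered libraries taken to be those of a heifer, in red for H and in blue for L. For miR-6517 the 3 H lines lie above the L lines in both cycles, and for miR-2300b-3p the H lines stay at 0.

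Over both cycles, with the 2 libraries of a heifer averaged and 3 H compared with 3 L heifers, miR-6517 and miR-2300b-3p were the members called. They were 2 of 13 tested, against 6 of 238 miRNAs (2.52%), or 12 miRNAs without heifer L2 and 17 without heifer H2. For miR-6517, 23 reads in 6 H libraries stood against 1 read in 6 L libraries, a ratio of 20.7 with a 95% exact counting interval of 3.36 to 852. Its log2 difference was 2.02 ± 0.54 (SE), with an unadjusted P of 0.00205 and a Benjamini-Hochberg adjusted P of 0.244 in limma. No adjusted P of the 238 miRNAs was lower, but another miRNA with a lower unadjusted P shared this value. For miR-6517, an exact two-sided permutation test gave 0.1, the smallest p that 3 against 3 heifers allow. All 6 H libraries had a read of miR-6517, and of the 6 L libraries only UL2 had any.

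For miR-2300b-3p, 0 reads in the H libraries stood against 13 in the L libraries. With a limit of 3 reads for H, its level was 4.82-fold lower in H, without the counting error of the 13 reads. Its log2 difference was -1.47 ± 0.48 (SE), with an unadjusted P of 0.00827 and a Benjamini-Hochberg adjusted P of 0.656 in limma, and the exact permutation test again gave 0.1. All 3 L heifers had a read in at least 1 cycle, and 11 of the 13 reads came from UL2, SL2 and SL3. The comparison over both cycles uses the same libraries as the comparisons within a cycle and adds no sample to them.

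For miR-2419-5p, the H heifers had 1, 13 and 12 reads in the U cycle and 0, 4 and 20 in the S cycle, and the L heifers had 4, 2 and 0 and then 2, 0 and 2. Heifers H2 and H3 lay above all L libraries in both cycles, while H1 lay among them. In sum, 50 reads in H and 10 in L gave a ratio of 4.50 with a 95% exact counting interval of 2.25 to 9.94, which does not cover the spread between heifers. With that spread, the log2 difference over both cycles was 1.22 ± 0.77 (SE), with an unadjusted P of 0.134 and a Benjamini-Hochberg adjusted P of 0.735 in limma, and it was not called. Without heifer H1 it was called, at 2.13.

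The remaining members did not pass for H vs. L in either cycle. miR-2478 had a log2 difference of -1.13 ± 0.72 (SE) in the U cycle and of -0.81 ± 0.97 in the S cycle. Its lowest values in both cycles were those of H1, with 1 and 0 reads, and without SH1 the S cycle value was 0.17. miR-6524 was at -0.96 ± 0.73 and -0.63 ± 0.71 in the 2 cycles, and miR-2299-3p at -0.23 ± 0.68 and -1.27 ± 0.69. miR-6524 met the minimum for a test through L groups only, and in the S cycle so did miR-2299-3p. Those differences are not independent of that selection. miR-6529 was at -0.48 ± 0.38 and 0.34 ± 0.51, with the sign of the latter turned (-0.15) when SL1 was left out. Over both cycles, 5 of the 13 members were higher and 8 lower in H, with a median of -0.07 against -0.03 over all miRNAs.

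**Figure D4:**
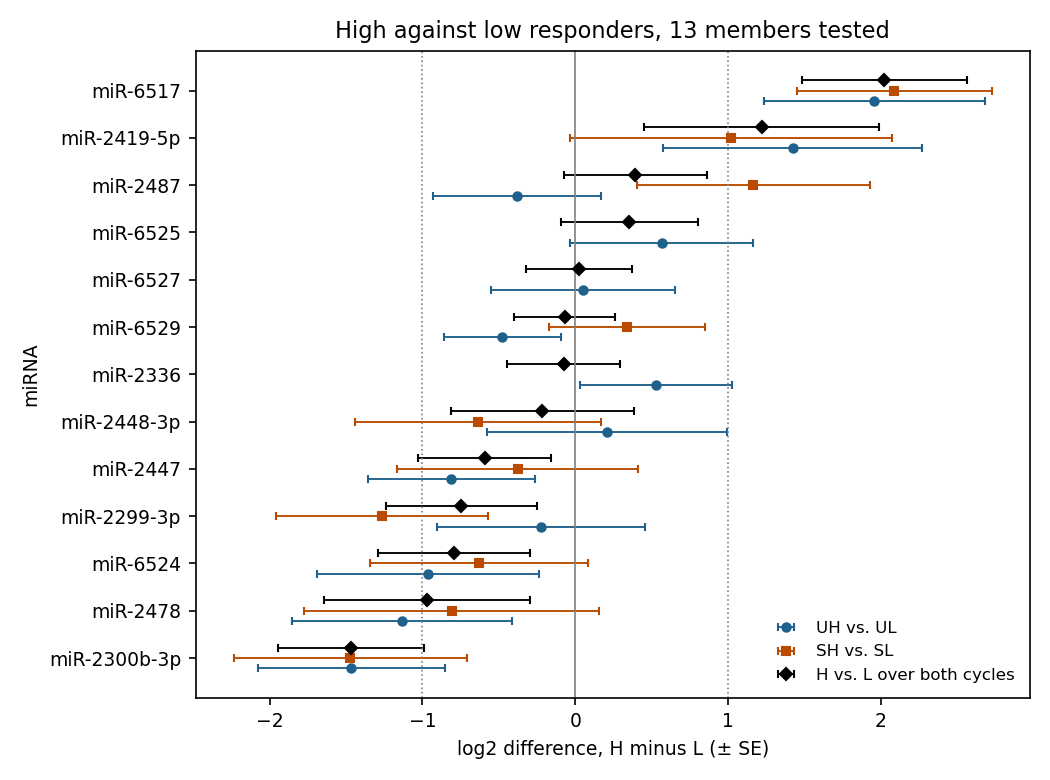
log2 difference (H minus L) of the 13 members tested for UH vs. UL (circles), SH vs. SL (squares) and H vs. L over both cycles (diamonds), with bars of 1 SE. Dotted lines mark a difference of 1. miR-6517 lies near 2 in all 3 comparisons, miR-2300b-3p near -1.5, and the bars of most other members reach 0 in at least 1 comparison.

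Markers of other tissues were looked at beside these differences, since plasma EVs come from many cells. Of the 4 skeletal muscle miRNAs listed (miR-1, miR-133a, miR-133b and miR-206), 1 was called lower in H in each of the comparisons UH vs. UL (4 tested), SH vs. SL (3 tested) and over both cycles (4 tested). Their summed level was 74.0 to 1706 normalized reads in UL, 37.7 to 144 in UH, 83.7 to 162 in SL and 59.0 to 163 in SH. The medians were 118, 72.2, 119 and 117 in the same order, and the 1706 was that of a single UL library. None of the 4 miRNAs was at 0 throughout. No miRNA of the erythrocyte (3), endothelial and platelet (3), leukocyte (4) and liver (1) lists was called in these comparisons. The part of other tissues in the values of miR-6517 and miR-2300b-3p was not tested. In plasma, fewer EVs from a source and less RNA per EV cannot be told apart.

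The second question was whether members changed between the cycles. The limma fits for it took the libraries as separate samples and did not use the pairing by heifer. Of 10 members tested, 0 were called for UH vs. SH, against 12 of 212 miRNAs (5.66%), and 0 of 10 for UL vs. SL, against 5 of 214 (2.34%). Single libraries decided both counts over all miRNAs. For UH vs. SH it was 24 without SH2 and 6 without SH1 or UH2. For UL vs. SL it was 8 without UL1 or SL1, 9 without UL3, 11 without UL2 and 15 without SL2. Over all heifers (S vs. U), 0 of 13 were called, against 11 of 238 miRNAs (4.62%), or 5 miRNAs without UL1, 7 without UL3 and 6 without UH1. In limma, 0 members had an unadjusted P under 0.05 in any of these 3 comparisons, where 5.66%, 4.21% and 7.14% of all miRNAs did, and limma voom called 0 members in each as well. The median log2 difference of S minus U over the members was -0.17, against -0.13 over all miRNAs.

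The member closest to a call was miR-6527, which had a single read in UL1, UL3, UH1 and UH2 and 0 in all S libraries. It met the minimum for a test through U groups only, so its P is not independent of that selection. Its log2 difference (S minus U) was -0.67 ± 0.32 (SE), with an unadjusted P of 0.0503 and a Benjamini-Hochberg adjusted P of 0.628 in limma. Its 4 reads, against a limit of 3 for the 0 in S, gave a level 1.08-fold lower in S. The counting error of the 4 reads is not included, so this is no least fold. miR-2448-3p was lower in S in 5 of 6 heifers, with 28 reads in U and 15 in S. Its log2 difference was -0.67 ± 0.59 (SE), and an exact sign-flip permutation test over the 6 heifers gave a two-sided p of 0.281, where 0.0313 is the smallest possible.

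Neither miR-6517 nor miR-2300b-3p was called between cycles. miR-6517 gave 13 UH and 10 SH reads, a ratio of 1.10 (95% exact counting interval 0.447 to 2.81), and its log2 difference (UH minus SH) was 0.18 ± 0.87 (SE). miR-2300b-3p gave 7 UL and 6 SL reads, and its log2 difference (UL minus SL) was -0.01 ± 0.85 (SE). The interval of miR-6517 leaves room for a change of 2-fold in either direction.

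Whether the difference between H and L itself changed from the U to the S cycle was tested as an interaction over the 4 groups. This fit did not use the pairing by heifer either. Of the 13 members, 0 were called, against 12 of 238 miRNAs (5.04%; 21 miRNAs without SH2 and 7 without UL1), and 0 had an unadjusted P under 0.05 in limma. limma voom also called 0 members. The value was 0.13 ± 0.95 (SE) for miR-6517 and -0.01 ± 0.93 for miR-2300b-3p. The lowest unadjusted P was that of miR-2487, 0.0917 in limma with a Benjamini-Hochberg adjusted P of 0.847. It met the minimum for a test through UL and SH only, the groups that enter the interaction with a plus sign. Its P is thus not independent of that selection. The L heifers had 0, 1 and 1 reads in the U cycle and none in the S cycle, the H heifers had 0, 1 and 0 and then 0, 3 and 1, and it was called only without SH1.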

How the data were processed

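Plasma EV small RNA libraries (12) were analysed. The authors used Cutadapt 1.11 for adapters and UMI collapsing, Bowtie2 2.2.2 for mapping (UMD3.1), miRBase release 21 for perfect matches, and edgeR with TMM. The deposited values are a score made by the authors: tags for every 1000000 mapped reads, with decimals dropped. Dividing by the step of each library (4.48 to 7.93) and rounding up returned whole reads for 100% of values. Columns left unused numbered 0.

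Reads were scaled with TMM factors (trims of 30% and 5%) computed over the 12 libraries. limma 3.58.1 (R 4.3.3; lmFit, eBayes with trend) was fitted to log2(normalized reads + 1) of all miRNAs seen (1 read or more) in 2 or 3 libraries of the same group, two-sided, with Benjamini-Hochberg adjustment over all of them, and was tested on simulated data. Whole reads were returned, but the deposited values are not counts, and no count model such as edgeR was run. limma voom was fitted to the returned reads as an alternative. Depth was 21466 to 77433 known miRNA reads. Folds against groups at 0 used a limit of 3 reads over the group. They took the reads of the other group as exact and so are not lower limits.

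Members that passed this minimum, and any called, were named. Members and lists were chosen with earlier results of these data known. Same-numbered U and S libraries were taken to come from the same heifer. This rests on the labels' numbers and on the sampling of each heifer in both cycles, while the match itself was not stated. Between same-numbered libraries, the correlations of the deviations from the group means were -0.05 to 0.21 over 238 miRNAs. Chi-square tests found replicates to differ beyond sampling noise, so each counts once. Python 3.11.15 was used with scipy 1.17.1, pandas 2.3.3, matplotlib 3.10.9 and numpy 2.4.6.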

Additional observations from a re-analysis of the deposited data

Results flagged for a closer look

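miR-2300b-3p in UL2 stood apart from the other 5 U libraries, with 4.51 normalized reads where the next highest library had 0.988. In the S cycle, miR-2300b-3p in SL3 stood apart in the same way, with 6.18 normalized reads and 1.97 in the next library. The highest library differs between the cycles, L2 in U and L3 in S, and the values rest on 5 and 4 reads. In all, 22 sets of 6 libraries were screened in this way, and chance alone marks about 1 in 20.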

How the results depend on the processing

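miR-6517 stayed higher in H in all settings tried. Of the L libraries only UL2 had a read of it, so these settings could not turn its direction. Every setting reused the libraries in which miR-6517 met the minimum for a test through H groups only, and miR-2300b-3p through L groups only. miR-6517 was called in 15 of 16 for UH vs. UL, in 16 of 16 for SH vs. SL and in 16 of 16 over both cycles. Its log2 differences were 1.39 to 2.58, 1.40 to 2.90 and 1.40 to 2.74. Its Benjamini-Hochberg adjusted P in limma ranged from 0.597 to 0.980, 0.110 to 0.829 and 0.0667 to 0.916. miR-2300b-3p was called in 11 of 15 for UH vs. UL, in 1 of 13 for SH vs. SL and in 15 of 16 over both cycles, with adjusted P of 0.680 to 0.980, 0.300 to 0.847 and 0.252 to 0.916. The number of members called for UH vs. UL was 1 with a minimum of 10 reads, under which fewer miRNAs were tested, and 1 with a pseudocount of 2. Over both cycles it was 1 with a pseudocount of 2. For S vs. U it was 1, miR-6527, with a pseudocount of 0.5. Leaving out each library or heifer in turn gave 1 to 3 members for UH vs. UL, 1 to 2 for SH vs. SL, 0 to 1 for UH vs. SH, 0 for UL vs. SL, 2 to 3 over both cycles, 0 for S vs. U and 0 to 1 for the interaction. The extra members were miR-2419-5p (without UH1, SH1 or heifer H1), miR-6524 (without UH2), miR-2299-3p (without UH1 or SL3), miR-2300b-3p (without SL1) and miR-2487 (without SH1). The calls over all miRNAs ranged more widely, 5 to 10, 8 to 34, 6 to 24, 7 to 15, 6 to 17, 5 to 16 and 7 to 21 in the same order, with 34, 24 and 21 without SH2. The sign turned in SH vs. SL for miR-2478 without SH1 (0.17, range over left-out libraries -1.42 to 0.17) and for miR-6529 without SL1 (-0.15, range -0.15 to 0.65), and the cause was not tested. With the heifer as a replicate block, members called numbered 2 over both cycles and 0 for UH vs. SH, UL vs. SL, S vs. U and the interaction, as without it. H and L heifers are different animals that share only a number; with that number as a replicate block, the U cycle gave 2 called members (UH vs. UL) and the S cycle 1 (SH vs. SL), as without it, at an unadjusted P of 0.0204 and 0.0297 for miR-6517 in limma. The all-miRNA count for UL vs. SL, 5 as reported, was 3 with the heifer block, 2 with a minimum of 10 reads, 3 with a pseudocount of 2 and 8 with limma voom. It was 10 without a filter and 3 with a minimum of 10 reads for UH vs. UL (6 as reported), 7 with the latter or with the deposited scaling for SH vs. SL (11), 2 with a pseudocount of 2 over both cycles (6), 4 with that pseudocount and 6 with the deposited scaling for S vs. U (11), and 7 with a minimum of 10 reads for the interaction (12). At a minimum of 2 reads, the median number of members seen in a library was 7, 8, 7 and 6 in UL, UH, SL and SH, and at 3 reads it was 4, 5, 3 and 4. Without miR-6529, the median share was 0.0686, 0.0662, 0.0507 and 0.0839%. As a share of all mapped reads, a larger denominator, the medians were 0.0434, 0.0355, 0.0413 and 0.0419%. With at most 6 reads of miR-6517 and 5 of miR-2300b-3p in a library, depth limits both results.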
